A study of Homo sapiens with 6 samples.

Results

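The genes described here, except ETV5, encode the negative feedback of ERK signaling. The genes are the MAP kinase phosphatases DUSP1, DUSP4, DUSP5 and DUSP6, the Sprouty genes SPRY1, SPRY2 and SPRY4, the Sprouty-related genes SPRED1 and SPRED2, and ETV5, an ETS transcription factor gene that ERK signaling induces. All are called feedback genes below for short, with ETV5 included as an induced gene and not as an inhibitor. The 10 genes were chosen by symbol for their place in the pathway, by a rule that uses no measured value, although earlier results of these data were known when they were chosen. All 10 were found among the 60605 rows with an Ensembl identifier in a table of 60780 rows. Of these, 9 were among the 16707 genes that passed the filter on low counts and were tested, and SPRY1 did not pass it.

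RNA-seq was performed on LX-2, an established human line of hepatic stellate cells, the pericytes of the liver sinusoid, kept for 24 h in conditioned medium of the human colorectal carcinoma line HCT116. The HCT116 cells carried either the empty lentiviral vector (Vector-CM, n = 3) or the same vector with FGFBP1, whose secreted protein binds FGFs and frees them from the extracellular matrix (FGFBP1-CM, n = 3). The comparison asks whether FGFBP1 in the tumor cell secretome acts on FGF receptor and ERK signaling in stellate cells. The vector drives its insert from the Ubi promoter and also carries EGFP and puromycin resistance, and LX-2 cells in both groups were themselves unmodified as far as the labels say. Each medium came from 1 stable HCT116 line, so an effect of FGFBP1 and a difference between those lines cannot be told apart. The labels do not say that the 3 libraries of a group came from separate cultures, so the p-values measure the spread between these libraries, which may be technical.

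Growth factors such as FGF2 activate receptor tyrosine kinases, which signal through RAS, RAF and MEK to the kinase ERK. Active ERK raises transcription of its own inhibitors: dual specificity phosphatases that remove the activating phosphates from ERK, and Sprouty and Spred proteins that act between the receptor and RAF. Because these mRNAs follow ERK activity, they are widely read as its output in gene expression, and in stellate cells the pathway is known for its part in proliferation. A steady level of such mRNAs at a late time does not show whether an earlier pulse occurred, and no earlier time was analysed here.

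Total counts were 14003780 to 18508113 per library, and 3 counts corresponded to 0.158 to 0.217 CPM, the unit used here for levels (counts scaled to a common library size with TMM factors). Together the 10 genes held 0.0677% to 0.0704% of each library's counts. Of the 9 stellate cell markers, all were tested and all were lower in FGFBP1-CM (median log2 fold change -0.32). Of all tested genes, 49.3% lay below 0. The groups did not overlap for 4 markers (TIMP1, SPARC, LOX and VIM), against 13.2% of all tested genes lower. They overlapped for COL1A1 (log2 fold change -0.09), COL1A2, COL3A1, ACTA2 and PDGFRB. Summed levels were 3665 to 3918 CPM in Vector-CM and 2818 to 3377 CPM in FGFBP1-CM. Most of each sum was VIM, at 2465 to 2678 CPM in Vector-CM and 1966 to 2364 CPM in FGFBP1-CM. TIMP1 was the 1 marker of the 9 that passed the adjusted threshold (log2 fold change -0.38, adjusted p = 0.0465, edgeR). Markers of colorectal epithelium, which would mark the cells that conditioned the medium, summed to 1.21 to 2.09 CPM over 10 genes, with CEACAM5 at 0 in all 6 libraries. Of 4 hepatocyte markers, ALB fell (log2 fold change -2.44, adjusted p = 0.00869, edgeR), and the list summed to 2.96 to 4.78 CPM in Vector-CM and 0.673 to 1.06 CPM in FGFBP1-CM. The leukocyte marker PTPRC (0.606 to 1.73 CPM) and the endothelial markers PECAM1 and CDH5 (summed 1.77 to 3.55 CPM) overlapped between groups. The part of these marker differences in the results given next was not tested. By the labels each library is of LX-2 cells alone. Bulk levels do not tell less RNA per cell from fewer LX-2 cells that express a gene.

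In FGFBP1-CM, none of the 9 tested feedback genes passed an adjusted p of 0.05 in the edgeR quasi-likelihood test, where 0.12% of all tested genes (20 of 16707) did. That background depended on single libraries, from 4 genes without Vector-CM replicate 2 or 3, and 6 without Vector-CM replicate 1, to 72, 883 and 402 without FGFBP1-CM replicates 1, 2 and 3. DUSP1, with a fitted change of -16.6%, and DUSP4, at 17.6% higher, lay farthest from no change among the 9. The numbers past an unadjusted p of 0.05 were 1 higher (DUSP4) and 1 lower (DUSP1), against 11.1% of all tested genes higher and 10.7% lower. Over the alternative fits the unadjusted counts ranged from 0 to 2 higher and from 1 to 2 lower. The number higher was 0 without Vector-CM replicate 3. It was 2 with library size only, with no filter on low counts, and without Vector-CM replicate 2 or FGFBP1-CM replicate 3. The number lower was 2 with no filter on low counts and without FGFBP1-CM replicate 2 or 3. DESeq2, in which 580 of all genes passed the adjusted threshold, and limma, in which 1 did, each placed none of the 9 past it and 1 in each direction past the unadjusted one. The CPM ranges of the groups did not overlap for 2 genes that were higher, DUSP4 and SPRED1, and for 2 that were lower, DUSP1 and SPRY4, against 12.8% of all tested genes higher and 13.2% lower. The log2 fold change was above 0 for 5 of the 9 and below 0 for 4, with a median of 0.01 beside 0.00 over all tested genes. The summed level of the 10 genes was 689.7, 713.2 and 694 CPM in Vector-CM and 686.2, 696.2 and 699.5 CPM in FGFBP1-CM, so the ranges overlapped. The 95% intervals of the 9 fold changes, each taken gene by gene, lay between 0.735-fold and 1.33-fold.

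**Figure D1:**
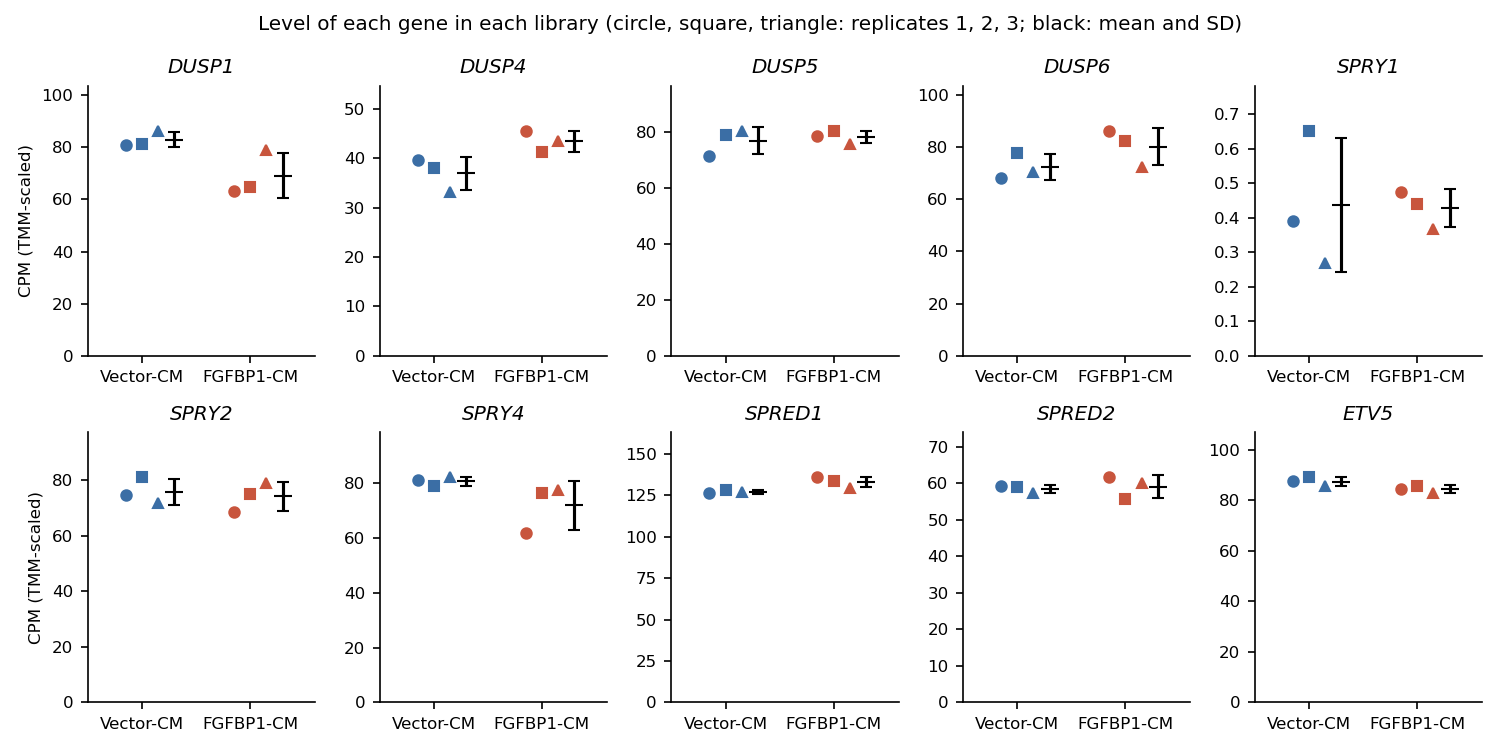
CPM of the 10 feedback genes in each library (circle, square and triangle are replicates 1, 2 and 3 of Vector-CM and of FGFBP1-CM, black marks give the mean and SD of 3 libraries, each vertical axis starts at 0). DUSP1 and SPRY4 sit lower and DUSP4 and SPRED1 higher in FGFBP1-CM without overlap, and SPRY1 is under 1 CPM in every library.

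DUSP1 encodes a nuclear phosphatase that acts on p38 and JNK as well as ERK and belongs to the immediate early genes. Its level was 80.95, 81.38 and 86.18 CPM in Vector-CM replicates 1 to 3 and 63.36, 64.90 and 79.03 CPM in FGFBP1-CM replicates 1 to 3. Replicates 1 and 2 of FGFBP1-CM were at 76.5% and 78.3% of the Vector-CM mean, while replicate 3 was at 95.4% and lay just under the lowest Vector-CM library. The means were 82.84 ± 2.90 and 69.09 ± 8.64 CPM (SD, n = 3). On the log2 scale DUSP1 differed by -0.26 (SE 0.0841; adjusted p = 0.112 in edgeR), with a 95% interval of -0.44 to -0.08. Without FGFBP1-CM replicate 3 the log2 fold change of DUSP1 was -0.37 and the adjusted p was 0.0317 (edgeR), and with no filter on low counts it was 0.0478 (edgeR), so the call depends on 1 library and on the filter, in fits that called 402 and 1382 of all genes. In the 16 alternative fits its log2 fold change ranged from -0.37 to -0.20, with an unadjusted p under 0.05 in each.

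DUSP1 (ENSG00000120129) lies on the minus strand of chromosome 5, from 172768090 to 172771195, in 4 exon blocks, in the GRCh38 annotation of GENCODE release 29. The start site given by RefSeq has the same position, and the 250 bases before it (chr5:172771196-172771445, GRCh38.p14, no annotated exon) are shown because DUSP1 had the lowest p of the 10 genes. The capitals mark the cAMP response element octamer TGACGTCA, which begins at base -125 from the start site and was found in 1.85% of 35116 RefSeq promoter windows of 300 bases on either strand.
DUSP1: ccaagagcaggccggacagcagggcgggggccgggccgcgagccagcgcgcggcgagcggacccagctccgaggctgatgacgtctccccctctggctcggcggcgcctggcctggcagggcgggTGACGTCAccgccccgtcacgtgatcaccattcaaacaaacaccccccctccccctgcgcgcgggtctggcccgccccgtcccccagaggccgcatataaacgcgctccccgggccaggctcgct
No other motif searched, for CIC, EGR1, AP-1 or ETS factors, was found in the DUSP1 window. The 3′ UTR of DUSP1 is short and dense in the pentamer ATTTA, a part of AU-rich elements known to mark unstable mRNAs. It held 4 in 675 bases, or 5.93 per kb, where the median was 2.00 per kb over the 10 genes and 1.79 per kb over 12082 tested genes, and 95.5% of those genes had fewer per kb than DUSP1.

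The 3 genes most like DUSP1 across the 6 libraries, by the distance between log2 CPM profiles centred on their means, among 9756 genes with a mean of at least 10 CPM, were UBE2C at 0.0835, CARD19 at 0.0898 and MANBA at 0.0983. UBE2C encodes a ubiquitin-conjugating enzyme of mitotic exit, CARD19 a caspase recruitment domain protein and MANBA a lysosomal mannosidase. Their log2 fold changes, -0.24 for UBE2C, -0.26 for CARD19 and -0.22 for MANBA, were not independent of the likeness to DUSP1, and none passed the adjusted threshold.

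DUSP4 encodes a second nuclear phosphatase, which acts on ERK and JNK. Its level was 39.53, 37.98 and 33.15 CPM in Vector-CM and 45.47, 41.30 and 43.43 CPM in FGFBP1-CM, so every FGFBP1-CM library lay above every Vector-CM library. The means were 36.88 ± 3.33 and 43.40 ± 2.09 CPM (SD, n = 3). On the log2 scale DUSP4 was 0.23 higher (SE 0.0822; adjusted p = 0.135, edgeR), with a 95% interval of 0.06 to 0.41. The gene (ENSG00000120875) lies on chromosome 8 from 29333064 to 29350668 on the minus strand, in 6 exon blocks. Without Vector-CM replicate 3, the lowest library, its log2 fold change was 0.16 and it was no longer past an unadjusted p of 0.05, while it was past it in the other 15 alternative fits.

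DUSP5 encodes a nuclear phosphatase that is selective for ERK. Its level was 71.68, 79.07 and 80.45 CPM in Vector-CM and 78.66, 80.52 and 76.03 CPM in FGFBP1-CM. The means were 77.07 ± 4.71 and 78.40 ± 2.26 CPM (SD, n = 3), and the groups overlapped. The difference was within the spread of the libraries, at 0.03 on the log2 scale (SE 0.0682; adjusted p = 0.864, edgeR) and a 95% interval of the fold change of 0.920 to 1.13. DUSP5 (ENSG00000138166) lies on the plus strand of chromosome 10, from 110497838 to 110511544, in 5 exon blocks.

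DUSP6 encodes the cytoplasmic phosphatase of ERK and is among the mRNAs most often used to read FGF receptor signaling. Its level was 68.33, 77.84 and 70.61 CPM in Vector-CM and 86.15, 82.22 and 72.18 CPM in FGFBP1-CM. Replicates 1 and 2 of FGFBP1-CM were above every Vector-CM library, at 119.2% and 113.8% of the Vector-CM mean, whereas replicate 3 was at 99.9% of it and fell within the Vector-CM range. The means were 72.26 ± 4.96 and 80.18 ± 7.20 CPM (SD, n = 3). DUSP6 thus differed by 0.15 on the log2 scale (SE 0.0800; adjusted p = 0.288, edgeR), with a 95% interval of the fold change of 0.986 to 1.25. It was past an unadjusted p of 0.05 in 4 of the 16 alternative fits, and its log2 fold change was 0.10 without FGFBP1-CM replicate 1 and 0.22 without FGFBP1-CM replicate 3. DUSP6 (ENSG00000139318) lies on the minus strand of chromosome 12, from 89347232 to 89353271, in 4 exon blocks. An antisense gene shares 1875 bases of these exons, and its own row held 4 to 8 counts per library. Without stated strandedness, reads over the shared bases may be missing from the DUSP6 count or wrongly included in it. The shares, ratios and order of levels given below that use DUSP6 carry the same limit.

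The 4 phosphatase mRNAs were also compared as shares within each library, which do not depend on scaling between libraries, unlike their sum. In FPKM, the deposited value that divides fragments by gene length as well as by depth, their sum was 91.2, 95.76 and 95.02 in Vector-CM and 93.28, 90.79 and 94.46 in FGFBP1-CM. The share of DUSP1 in that sum was 43.9%, 41.7% and 44% in Vector-CM and 34.6%, 35.4% and 41.8% in FGFBP1-CM. The share of DUSP6 was 19.3%, 20.8% and 18.8% in Vector-CM and 24.5%, 23.4% and 19.9% in FGFBP1-CM. The summed level therefore overlapped between groups while the make-up of FGFBP1-CM replicates 1 and 2 held less DUSP1 and more DUSP6 than any Vector-CM library, and replicate 3 was close to Vector-CM in these shares. The share of DUSP4 was 4.68% to 5.93% in Vector-CM and 6.24% to 6.86% in FGFBP1-CM, above every Vector-CM library in replicate 3 as well (6.36%), and that of DUSP5 was 30.9% to 32.6% and 31.9% to 34.9%.

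**Figure D2:**
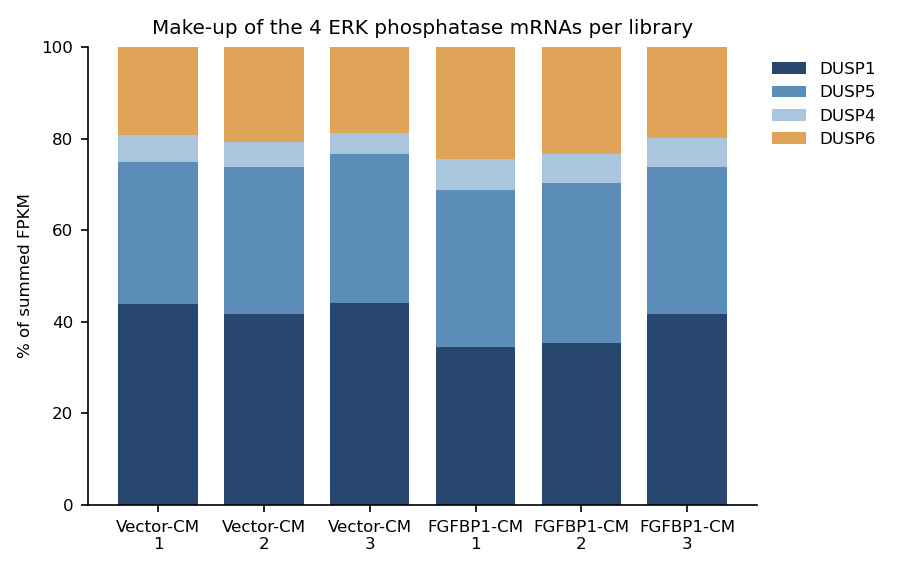
Share (%) of each of the 4 ERK phosphatase mRNAs in their summed FPKM, 1 stacked bar per library. DUSP1 makes up 41.7% to 44% in Vector-CM and 34.6% to 41.8% in FGFBP1-CM, and FGFBP1-CM replicate 3 is nearest to Vector-CM in DUSP1 and DUSP6 but not in DUSP4 (6.36% against at most 5.93%).

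The ratio of the nuclear phosphatases (summed FPKM of DUSP1, DUSP4 and DUSP5) to cytoplasmic DUSP6 was 4.175, 3.81 and 4.323 in Vector-CM and 3.08, 3.271 and 4.022 in FGFBP1-CM. FGFBP1-CM replicate 3 lay inside the Vector-CM range. The log2 difference was -0.25 and did not pass an exact two-sided permutation test over libraries (p = 0.2, where 0.1 is the smallest that 3 against 3 allows). It was -0.09 when DUSP1 was left out of the sum. Of 6 further ratios chosen after the values were seen, only DUSP4 to DUSP1 had groups that did not overlap, at 0.1351, 0.1292 and 0.1065 in Vector-CM and 0.1987, 0.1761 and 0.1521 in FGFBP1-CM. This ratio pairs the gene that was lower with the gene that was higher, so its log2 difference of 0.51 is a description of values already given and carries no test. The exact permutation p of the other 5 was 0.2 to 0.5, or 0.42 to 0.5 when adjusted over the 7 ratios, DUSP4 to DUSP1 among them. As these ratios were also chosen after the values were seen, their p-values are descriptive. DUSP1 to DUSP6 (2.205 ± 0.177 against 1.674 ± 0.372; SD, n = 3) likewise pairs a gene fitted lower with a gene fitted higher. The others include SPRY2 to SPRY4 (1.914 ± 0.161 against 2.114 ± 0.135; SD, n = 3) and SPRED1 to SPRED2 (1.542 ± 0.0305 against 1.602 ± 0.0944; SD, n = 3).

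The Sprouty proteins inhibit receptor tyrosine kinase signaling upstream of ERK. SPRY2, the most abundant of the 3 in these cells per length, was measured at 74.47, 80.88 and 71.62 CPM in Vector-CM and 68.47, 75.06 and 78.79 CPM in FGFBP1-CM. The groups overlapped, with means of 75.66 ± 4.74 and 74.11 ± 5.22 CPM (SD, n = 3). On the log2 scale SPRY2 differed by -0.03 (SE 0.0746; adjusted p = 0.854, edgeR) with a 95% interval of the fold change of 0.876 to 1.09, and its sign depended on the scaling. SPRY2 (ENSG00000136158) lies on the minus strand of chromosome 13, from 80335976 to 80340951, in 3 exon blocks.

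RefSeq gives 3 start sites for SPRY2, and the 250 bases before the farthest upstream one (chr13:80341127-80341376, GRCh38.p14, minus strand, no annotated exon) are shown because among the windows of the 10 genes that held an EGR1 motif this was the one free of annotated exons. The capitals mark the ETS core hexamer CCGGAA at base -142 and, read on the opposite strand, the EGR1 nonamer GCGGGGGCG at base -41.
SPRY2: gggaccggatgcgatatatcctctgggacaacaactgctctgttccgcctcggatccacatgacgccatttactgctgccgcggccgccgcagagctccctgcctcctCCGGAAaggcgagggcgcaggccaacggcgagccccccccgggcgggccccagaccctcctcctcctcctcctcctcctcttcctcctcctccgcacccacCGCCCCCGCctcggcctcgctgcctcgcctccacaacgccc
The ETS hexamer was found in 17.2% of the 35116 windows and the EGR1 nonamer (GCGTGGGCG or GCGGGGGCG) in 5.77%, on either strand. RefSeq windows were matched for 7 of the 10 genes, 11 windows in all, and not for DUSP4, DUSP5 and ETV5. The second of 2 SPRY1 windows held the EGR1 nonamer at base -28 and the ETS hexamer at base -67, and a SPRED2 window held the AP-1 heptamer TGACTCA at base -6, which was found in 4.95% of all windows. The CIC octamers TGAATGAA and TGAATGGA, the letters bound by the repressor that ERK signaling relieves at ETV and Sprouty genes, were in none of the 11 windows and in 2.63% of all windows. A match is a description of these letters and does not show binding.

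SPRY4 was measured at 81.28, 78.85 and 82.07 CPM in Vector-CM and 61.72, 76.51 and 77.38 CPM in FGFBP1-CM. The groups did not overlap, but FGFBP1-CM replicate 1 stood at 76.5% of the Vector-CM mean while replicates 2 and 3 were at 94.8% and 95.8%. The means were 80.73 ± 1.68 and 71.87 ± 8.80 CPM (SD, n = 3). The log2 fold change was -0.17 (SE 0.0842; adjusted p = 0.261, edgeR), with a 95% interval of the fold change of 0.784 to 1.01, and it was -0.07 without FGFBP1-CM replicate 1. SPRY4 (ENSG00000187678) lies on the minus strand of chromosome 5, from 142310427 to 142326455, in 5 exon blocks.

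SPRY1 was near the detection limit, with 7, 9 and 4 counts in Vector-CM and 9, 7 and 6 counts in FGFBP1-CM, or 0.270 to 0.651 CPM. It was not tested by edgeR. The counts summed to 20 in Vector-CM and 22 in FGFBP1-CM. Per library size scaled with the TMM factors the ratio was 1.00, with an exact Poisson interval of 0.521 to 1.93 that covers counting error only. These counts do not tell ratios within that interval apart. SPRY1 (ENSG00000164056) lies on the plus strand of chromosome 4, from 123396795 to 123403760, in 5 exon blocks.

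The Spred proteins bring neurofibromin to RAS at the membrane and thereby lower RAS activity. SPRED1 was measured at 126.1, 128.4 and 126.7 CPM in Vector-CM and 135.7, 133.8 and 129.4 CPM in FGFBP1-CM, without overlap. The means of 127.1 ± 1.18 and 133.0 ± 3.21 CPM (SD, n = 3) differed little in size, and the log2 difference, 0.07 (SE 0.0594; adjusted p = 0.55, edgeR), had a 95% interval of the fold change of 0.958 to 1.14. Correcting for GC content and length turned it to -0.02. SPRED1 (ENSG00000166068) lies on the plus strand of chromosome 15, from 38252326 to 38357249, in 9 exon blocks.

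SPRED2 was measured at 59.29, 59.10 and 57.27 CPM in Vector-CM and 61.62, 55.61 and 60.01 CPM in FGFBP1-CM, with overlap. The means were 58.55 ± 1.11 and 59.08 ± 3.11 CPM (SD, n = 3). SPRED2 differed by 0.01 on the log2 scale (SE 0.0679; adjusted p = 0.933, edgeR), with a 95% interval of the fold change of 0.912 to 1.12. SPRED2 (ENSG00000198369) lies on the minus strand of chromosome 2, from 65310851 to 65432637, in 12 exon blocks.

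ETV5 encodes a PEA3 family ETS factor whose transcription follows FGF receptor signaling in many tissues. It was measured at 87.65, 89.05 and 85.64 CPM in Vector-CM and 84.62, 85.80 and 82.88 CPM in FGFBP1-CM. The highest FGFBP1-CM library lay above the lowest Vector-CM library, so the groups overlapped, with means of 87.45 ± 1.71 and 84.43 ± 1.46 CPM (SD, n = 3). ETV5 differed by -0.05 on the log2 scale (SE 0.0610; adjusted p = 0.665, edgeR), with a 95% interval of the fold change of 0.881 to 1.06. ETV5 (ENSG00000244405) lies on the minus strand of chromosome 3, from 186046308 to 186110318, in 20 exon blocks, of which 164 bases overlap DGKG, a gene with 147 to 240 counts per library.

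**Figure D3:**
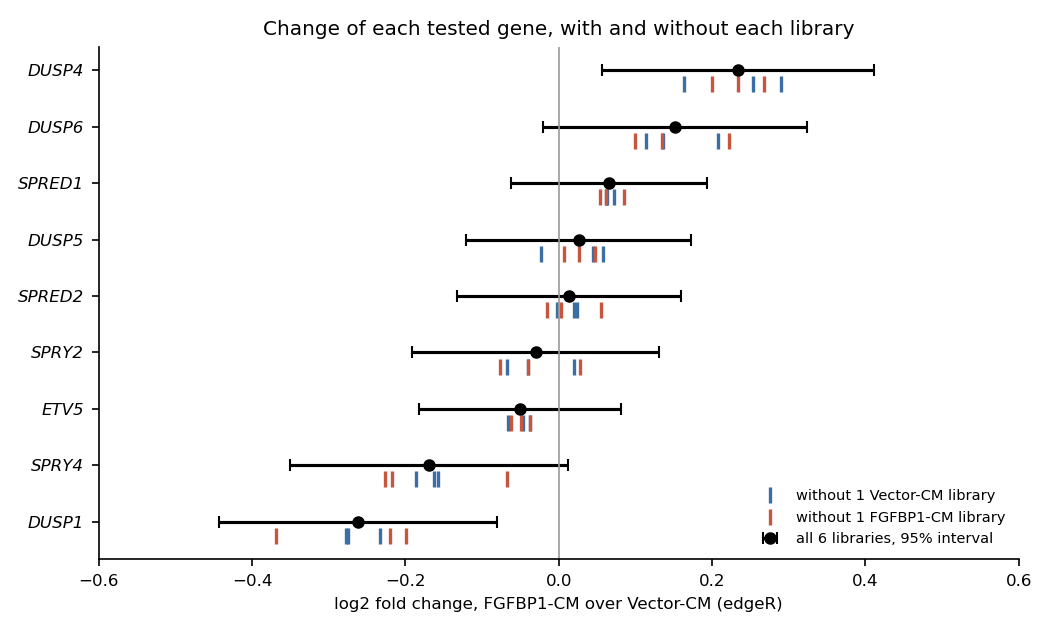
Log2 fold change (FGFBP1-CM over Vector-CM) of the 9 tested feedback genes, with the 95% interval from edgeR as a bar and, as ticks under it, the value without each library in turn (blue, without 1 Vector-CM library; red, without 1 FGFBP1-CM library). The intervals of DUSP1 and DUSP4 lie off 0, and the ticks of DUSP1 spread from -0.37 to -0.20.

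The 10 genes differed widely from each other in level, which was compared per length over all 6 libraries. By mean FPKM the order was DUSP1 (37.6 ± 4.25), DUSP5 (30.59 ± 1.34), SPRY2 (23.24 ± 1.33), DUSP6 (19.72 ± 2.05), SPRED1 (16.74 ± 0.738), ETV5 (14.85 ± 0.331), SPRY4 (11.6 ± 0.991), SPRED2 (10.66 ± 0.518), DUSP4 (5.514 ± 0.683) and SPRY1 (0.1089 ± 0.0323), each as mean and SD of 6 libraries. Neighbours whose ranges overlapped were SPRY2 and DUSP6, DUSP6 and SPRED1, and SPRY4 and SPRED2, whereas the other 6 neighbouring pairs did not overlap. DUSP1 had a higher FPKM than 94.1% of the tested genes and DUSP5 than 92.2%, while DUSP4 stood at 58.1%. The widest step was from DUSP4 to SPRY1, 50.7-fold in FPKM, so among the Sprouty genes SPRY2 and SPRY4 had the higher levels and the SPRY1 level was at percentile 1.17 of the tested genes. The order held in all 10 places when any 1 library was left out. These levels describe the cells in both media and carry no test.

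**Figure D4:**
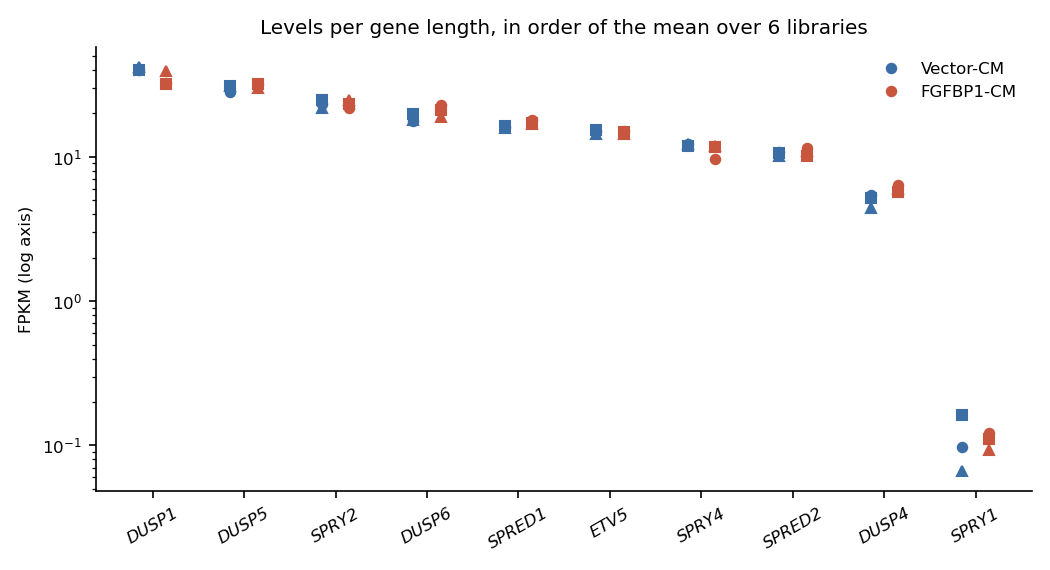
FPKM (log axis) of the 10 feedback genes in each of the 6 libraries, ordered by mean, with Vector-CM in blue and FGFBP1-CM in red (circle, square and triangle are replicates 1, 2 and 3). The levels run from 37.6 FPKM on average for DUSP1 to 5.514 for DUSP4 and 0.1089 for SPRY1, and the groups lie close together at each gene.

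The rest of the pathway was described from 4 lists of 46 genes, of which 42 were tested. None passed the adjusted threshold in edgeR, where 0.12% of all tested genes did. At an unadjusted p under 0.05, 6 were higher and 4 were lower, against the 11.1% and 10.7% of all tested genes. The number higher was 2 without Vector-CM replicate 3, and 3 without Vector-CM replicate 1 or FGFBP1-CM replicate 1. It was 8 with library size only, with no filter on low counts, with the GC and length correction, and without Vector-CM replicate 2. With that correction and the replicate block together it was 9. The number lower was 2 without FGFBP1-CM replicate 1, with library size only and with limma. It was 7 with the GC and length correction and 8 with the block added.

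Of 9 other MAP kinase phosphatases, 5 were tested and 1 was higher at an unadjusted p under 0.05, against 11.1% of all tested genes. That gene was DUSP16, a phosphatase of JNK and p38, at 48.68, 49.12 and 49.39 CPM in Vector-CM and 55.81, 53.16 and 57.56 CPM in FGFBP1-CM (log2 fold change 0.18, adjusted p = 0.152, edgeR), and it was no longer past an unadjusted p of 0.05 without Vector-CM replicate 3 or FGFBP1-CM replicate 3. DUSP7, the closest relative of DUSP6 in the lists, was at 33.91 ± 1.96 and 32.22 ± 1.14 CPM (SD, n = 3), with overlap. DUSP8, a further phosphatase of JNK and p38, had the next lowest p, with overlap (log2 fold change -0.35, adjusted p = 0.308, edgeR, and -0.21 without FGFBP1-CM replicate 1).

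Of 10 other inhibitors of receptor tyrosine kinase and RAS signaling, listed whether or not ERK induces them, all were tested. The median log2 fold change was -0.05. At an unadjusted p under 0.05, 2 were higher and 1 (IL17RD) was lower, against 11.1% and 10.7% of all tested genes. The 2 that were higher were the remaining members of the Sprouty and Spred families, both at low levels. SPRY3 was at 2.68, 2.315 and 1.752 CPM in Vector-CM and 4.379, 3.326 and 2.814 CPM in FGFBP1-CM, and SPRED3 at 7.09, 8.03 and 7.681 CPM and 11.92, 10.1 and 8.197 CPM. Neither had overlapping groups. The log2 fold change of SPRY3 was 0.64 (95% interval 0.15 to 1.13; adjusted p = 0.139, edgeR) and that of SPRED3 was 0.42 (95% interval 0.10 to 0.73; adjusted p = 0.136, edgeR). Without FGFBP1-CM replicate 1 these were 0.44 and 0.27, and neither was past an unadjusted p of 0.05. SPRY3 was also not past it without Vector-CM replicate 3, nor SPRED3 without Vector-CM replicate 1.

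Of 15 other genes induced by ERK signaling, all were tested. At an unadjusted p under 0.05, 3 were higher (FOS, PHLDA1 and MYC) and 1 was lower (PLAUR), against 11.1% and 10.7% of all tested genes. The log2 fold change lay above 0 for 10 of the 15 (median 0.13), beside 8472 of all 16707 tested genes (median 0.00). FOS, an immediate early gene of the AP-1 complex, was at 2.401, 2.315 and 2.493 CPM in Vector-CM and 3.429, 3.703 and 3.487 CPM in FGFBP1-CM, a low level (log2 fold change 0.56, adjusted p = 0.111, edgeR). PLAUR, which encodes the urokinase receptor, was at 114.3 ± 2.58 and 100.2 ± 4.76 CPM (SD, n = 3; log2 fold change -0.19, adjusted p = 0.121, edgeR). EGR1, the immediate early transcription factor at the end of the proposed ERK axis, was at 16.36, 17.43 and 12.2 CPM in Vector-CM and 24.79, 19.21 and 14.8 CPM in FGFBP1-CM, with overlap. Its log2 fold change was 0.36 (95% interval -0.01 to 0.73; adjusted p = 0.241, edgeR), and of the 16 alternatives it was past the adjusted threshold in 1, with no filter on low counts, at an adjusted p of 0.0308 (edgeR). EGR1 was past an unadjusted p of 0.05 with library size only, no filter, DESeq2, the replicate block, and the GC and length correction with or without the block. The same held without Vector-CM replicate 2 or FGFBP1-CM replicate 3, but not in the main fit or the remaining alternatives. The EGR1 value rested on single libraries, at 0.15 without FGFBP1-CM replicate 1, 0.22 without Vector-CM replicate 3 and 0.53 without FGFBP1-CM replicate 3 on the log2 scale. Of the PEA3 relatives of ETV5, ETV1 was at 32.93 ± 0.909 and 36.9 ± 2.53 CPM (SD, n = 3) without overlap and ETV4 at 39.29 ± 1.41 and 38.23 ± 1.75 CPM (SD, n = 3) with overlap.

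Of 12 transcription factors known to act at feedback genes, all were tested. None was higher and 2 were lower at an unadjusted p under 0.05, against 11.1% and 10.7% of all tested genes. The log2 fold change lay below 0 for 11 of the 12 (median -0.07), beside 49.3% of all tested genes. With library size only, 7 of the 12 were below 0 (median -0.04), beside 42.7% of all genes, and over the other alternatives 7 to 11 were. ATXN1, a partner of the repressor CIC, was at 77.32 ± 2.71 and 68.03 ± 5.31 CPM (SD, n = 3; log2 fold change -0.19, adjusted p = 0.168, edgeR), and its value was -0.12 without FGFBP1-CM replicate 1. ELK1, an ETS factor that ERK phosphorylates, was at 96.15 ± 2.16 and 86.81 ± 0.785 CPM (SD, n = 3; log2 fold change -0.15, adjusted p = 0.183, edgeR). ELK1 was not past an unadjusted p of 0.05 with library size only, no filter, DESeq2, or the GC and length correction with or without the block. Nor was it past that level without Vector-CM replicate 2 or 3 or FGFBP1-CM replicate 3. ATXN1 was not past it with limma, or without Vector-CM replicate 3 or FGFBP1-CM replicate 1. Neither ATXN1 nor ELK1 had overlapping groups.

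**Figure D5:**
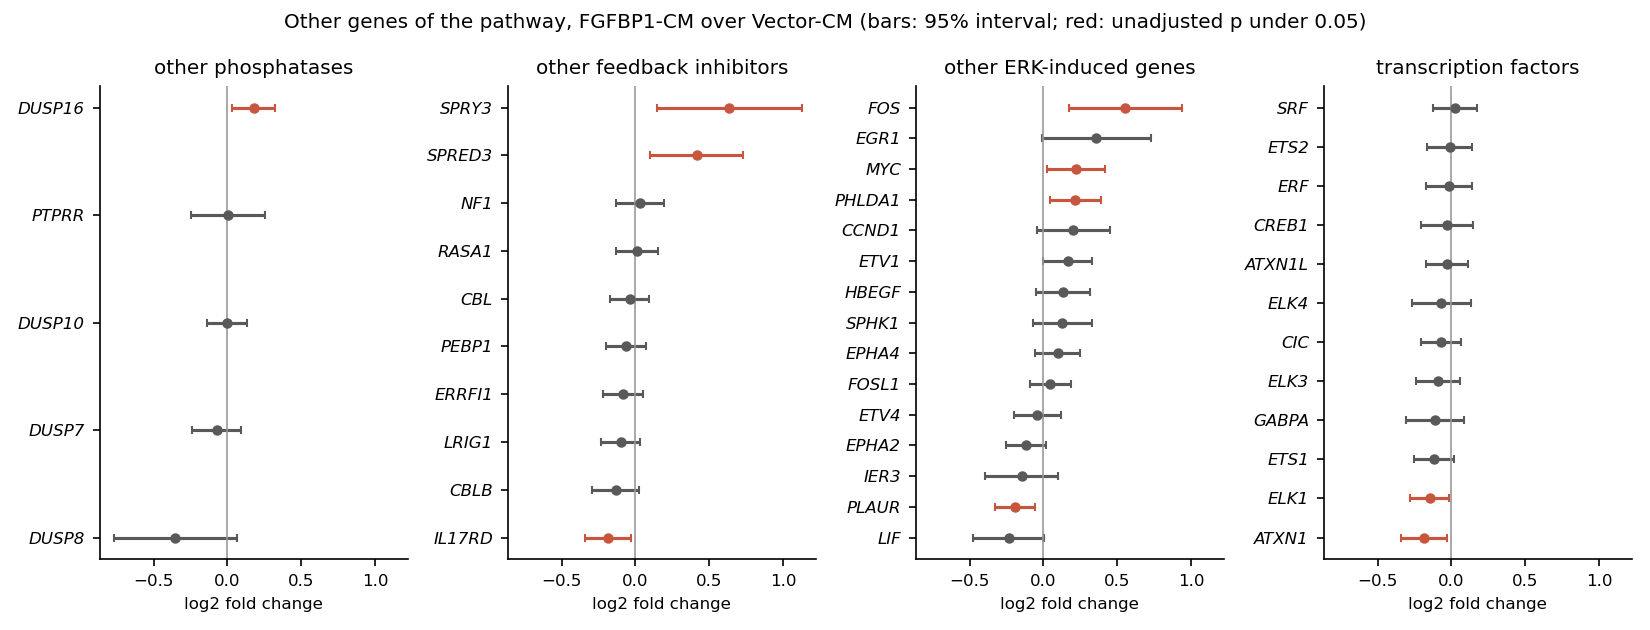
Log2 fold change (FGFBP1-CM over Vector-CM) of the 42 tested genes of 4 lists, with 95% intervals from edgeR (red, unadjusted p under 0.05). Of the induced genes 10 of 15 lie above 0 (median 0.13), beside 8472 of all 16707 tested genes. The transcription factors lie mostly below 0 (11 of 12, or 7 with library size only), beside 49.3% of all tested genes (42.7% with library size only). None of the 42 passed the adjusted threshold.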

How the data were processed

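RNA-seq of 6 LX-2 libraries was analysed, 3 per conditioned medium. Paired-end reads were aligned by the authors with HISAT2 2.0.5 and assigned to genes with featureCounts 1.5.0-p3, per the methods and the submitters' processing notes, and deposited raw gene counts. The FPKM values beside them were deposited by the authors as well. The processing notes list the build hg18, and the annotation and the use of strand are not given in the sources used here. Both poly(A) selection and ribosomal RNA depletion are described. The coordinates printed are those of GENCODE release 29 (GRCh38) and RefSeq GRCh38.p14 for the same genes, and need not be those used for counting.

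Groups came from the sample labels. Counts were fitted in edgeR 4.0.16 (R 4.3.3) with filterByExpr, TMM scaling and the quasi-likelihood F-test, with Benjamini-Hochberg adjustment over 16707 genes and a threshold of 0.05. The SE was taken from the fold change and F, and intervals are 95%. Genes named were the 10 genes, and from each of 4 other lists those past the threshold, otherwise the 2 with the lowest p, plus EGR1, ETV1, ETV4, SPRY3, SPRED3 and DUSP7. The 3 genes most like the one with the lowest p were also named. IL17RD, PHLDA1, MYC and CCND1 were named after their values were seen. The genes and lists were chosen with earlier results of these data known.

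Alternatives were RLE scaling, library size only, other filters, DESeq2 1.42.0, limma 3.58.1 on log2(FPKM + 1) and log2(FPKM + 0.1), a correction for GC content and length by loess (98.2% of tested genes had both values), the replicate number as a block and leaving out each library. Fits were also run on simulated data with larger changes than those fitted for the 9 feedback genes. The simulation therefore does not show whether changes of the present size would be found. No 2 libraries of a group agreed within sampling noise, with a chi-square per degree of freedom of 2.81 to 10.3, so none were merged. The highest values, 10.3 and 9.5, were those of FGFBP1-CM replicate 1 with replicates 2 and 3. Replicates 2 and 3 of FGFBP1-CM gave 4.81, and the Vector-CM pairs 2.81 to 5.71. Deviations from the group mean were not shared by libraries of the same number (correlation -0.14, -0.02 and 0.16 over 15033 genes), so the numbers were not taken as pairs. Authors' fold changes and p-values in the table were not used. Figures were drawn with matplotlib 3.10.9 in Python 3.11.15.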

Additional observations from a re-analysis of the deposited data

How the results depend on the processing

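The number of the 9 feedback genes past the adjusted threshold was 0 and became 1, DUSP1, without the filter on counts (edgeR, adjusted p = 0.0478), where 1382 genes passed in all. Leaving out each library in turn gave 0 to 1, again DUSP1, without FGFBP1-CM replicate 3, and 0 to 0 of the other pathway genes. With no filter 3 of those passed, PHLDA1, CCND1 and EGR1. With the replicate block the number of feedback genes past the threshold was 0, and the log2 fold change of DUSP1 was -0.27 and that of DUSP4 0.24. The log2 difference of the nuclear to cytoplasmic ratio was -0.25 with the replicate block (exact p = 0.25, the smallest 3 pairs allow), and -0.37 to -0.18 without each library in turn. By CPM, 3 of the 10 genes kept their place in the order of levels, against 10 without any 1 library. The log2 fold change of SPRY2 turned to 0.003 with library size only (0.00301) and with limma (0.00302 on log2(FPKM + 1), 0.00315 on log2(FPKM + 0.1)), and lay between -0.0764 and 0.0275 without each library. That of SPRED1 turned to -0.02 with the GC and length correction (-0.0157, and -0.0157 with the replicate block added), and that of ETV4 to 0.03 (0.0278, and 0.0272 with the block). Without each library DUSP5 lay between -0.0232 and 0.0577 and SPRED2 between -0.0159 and 0.0548. The cause of these shifts was not tested. Over the 9 genes and 16 alternatives, 132 values kept direction and call, 2 were newly past and 10 changed sign, as did 47 values of the other pathway genes. Counts limited SPRY1.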
